A study of Mus musculus with 11 samples.

Results

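A set of 40 genes of the lysosome and of autophagy was followed in CD8+ T cells of OT-I mice at 12 h. They were chosen by name, as symbols covering lysosomal enzymes, lysosomal membrane proteins, the proton pump, 2 transcription factors of lysosomal genes and the machinery that builds autophagosomes. The choice was made with earlier results of these data known, so counts of members set against all genes are descriptive. All 40 were among the 55414 genes of the table, and all 40 passed the filter on low counts that left 22238 genes. In OT-I mice the T cells carry 1 introduced receptor, which recognises a peptide of ovalbumin. Torin libraries (n = 3, numbers 1, 3 and 4) came from OT-I cells given Torin, an inhibitor of the kinase mTOR, together with the stimulating peptide N4. Stimulated libraries (n = 4) came from OT-I cells given N4 with DMSO, the solvent. Naive libraries (n = 4) came from untreated OT-I cells. All 3 groups share the OT-I genotype and the 12 h time point, and the peptide and Torin doses, the age and sex of the mice and the number of animals per library are not stated in the labels, so the p-values below measure only the spread between these libraries.

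Lysosomes are acidic organelles that degrade proteins, sugars and lipids taken up from outside or delivered by autophagy. In autophagy, a membrane grows around cytoplasm, is coated with lipid-bound proteins of the LC3 and GABARAP families, closes, and fuses with the lysosome. Active mTOR complex 1, which sits on the lysosome, phosphorylates ULK1 and so restrains the start of autophagy, and keeps the transcription factors TFEB and TFE3 in the cytosol. TFEB and TFE3 bind a short promoter element, called CLEAR, that many lysosomal genes carry.

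To show which members carry that element, promoters from RefSeq (GRCm38.p6), 250 bases before to 50 bases after the start of each gene, were searched on both strands. Of the 40 members, 32 had a promoter in the table. The CLEAR core GTCACGTG was present in 8 of the 32 (25.0%), against 2.5% of 27025 gene promoters. These 8 were Ctsa, Ctsd, Gla, Glb1, Lamp1, Mcoln1, Atp6v0d1 and Atg7. The E-box CACGTG, which lies inside the CLEAR core and reads the same on both strands, was present in 11 members (34.4%), against 8.1% of all promoters. The forkhead motif GTAAACA, the letters read by FOXO factors, was found in 0 of 32 members and in 4.1% of all promoters. A match is a run of letters and not a measured binding site. Below are the 6 members in which a core and 20 bases on each side of it lie wholly before the start, with the core in capitals. The strand given is that of the gene, and each sequence is written along it, 5′ to 3′.
Ctsd (chr7:142387898-142387945, minus strand): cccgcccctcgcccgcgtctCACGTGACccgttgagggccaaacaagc
Mcoln1 (chr8:3500426-3500473, plus strand): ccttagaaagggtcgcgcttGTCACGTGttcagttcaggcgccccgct
Lamp1 (chr8:13159113-13159160, plus strand): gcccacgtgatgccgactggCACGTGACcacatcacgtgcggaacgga
Glb1 (chr9:114401008-114401055, plus strand): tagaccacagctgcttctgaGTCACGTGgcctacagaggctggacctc
Gla (chrX:134601174-134601221, minus strand): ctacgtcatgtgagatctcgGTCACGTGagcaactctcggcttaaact
Atg7 (chr6:114670942-114670989, plus strand): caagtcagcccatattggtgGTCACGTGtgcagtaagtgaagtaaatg
The Lamp1 window holds further E-boxes beside its core, left in lower case, while the Ctsd, Mcoln1, Glb1, Gla and Atg7 windows hold no second CACGTG. Outside the windows shown, the promoters of Mcoln1 and Ctsd hold a further core, with first bases at -45 and -245 from the start. That of Gla holds a further E-box at -227. Members with the core did not move as 1 block in what follows. In stimulated against naive cells, Ctsd and Mcoln1 of the 6 shown were lower past the threshold, and Lamp1, Glb1, Gla and Atg7 were not called. Over all 8 with a core, 4 were called lower (median log2 change -1.0), and over the 24 members whose promoter lacks it, 12 were called lower and 2 higher (median -0.7).

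Totals of estimated counts ranged from 241865667 to 405884097 per library, a ratio of 1.68. CD8 T cell markers (Cd3d, Cd3e, Cd3g, Cd8a, Cd8b1 and Trac) summed to 3930 to 4140 normalised CPM in Torin, 2120 to 2910 in stimulated and 4980 to 6210 in naive libraries (counts scaled by library total and composition factor). Of these 6 markers, 4 were called lower in stimulated than in naive cells, against 20.2% of all genes. In Torin cells, 2 were higher than in stimulated cells, against 2.32%, and 2 were lower than in naive cells, against 15.8%. The part of this difference between groups in the results was not tested. Genes defining other cells were present too. The libraries of number 2, which have no Torin member, stood apart in myeloid genes. The 16 monocyte and macrophage markers summed to 284 CPM in stimulated 2, against 43.4 to 71.2 CPM in the other stimulated libraries, and to 3150 CPM in naive 2, against 206 to 500 CPM in the other naive libraries. The 13 granulocyte markers summed to 2110 CPM in stimulated 2 and 8820 CPM in naive 2, against at most 180 CPM elsewhere. In Torin libraries the monocyte and macrophage sum was 28.7 to 35.0 CPM. The libraries of number 4 held 13200 (Torin), 14400 (stimulated) and 47400 CPM (naive) of B cell markers, against at most 367 CPM in any other library. Results below are therefore given with and without the libraries of number 2 where the 2 differ. In such bulk libraries, fewer cells of a type and less RNA per cell cannot be told apart.

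Stimulation with N4 was set first against no treatment. The cathepsin genes Ctsa, Ctsb, Ctsd and Ctss (4 of 8), the genes Hexa, Neu1 and Psap (3 of the 6 glycosidase and saposin genes), both sterol exporters, the calcium channel gene Mcoln1, Tfeb, Ulk1, Uvrag, Map1lc3a, Map1lc3b and Sqstm1 were lower in stimulated cells, and Gusb and Gabarapl1 were higher. Of the 40 members, 19 were called lower, 2 were called higher and 19 did not pass. Over all 22238 genes tested, 20.2% were called lower and 19.2% higher. In a fit of only the 8550 genes with a mean of at least 5 CPM, 36.3% were called lower and 32.5% higher. That fit left out Tfeb and Wipi1, and in it Glb1, Tfe3, Gabarap and Gabarapl2 were also called lower. The members' calls thus lay mostly on 1 side where those of all genes did not. The median log2 change was -0.75 over the members and -0.22 over all genes. With scaling to library totals alone the median of all genes moved to -0.71 and that of the members to -1.25, so the distance between them was -0.53 and -0.54, and the calls were 24 lower and 1 higher, against 29.4% and 11.7% of all genes. Taken within each library number, the members' median log2 ratio of stimulated to naive was -0.78, -0.75, -0.94 and -0.63 for numbers 1 to 4, against -0.05 to -0.02 for all genes. Without the libraries of number 2, 15 members were called lower and 3 higher, against 17.3% and 17.0% of all genes.

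**Figure D1:**
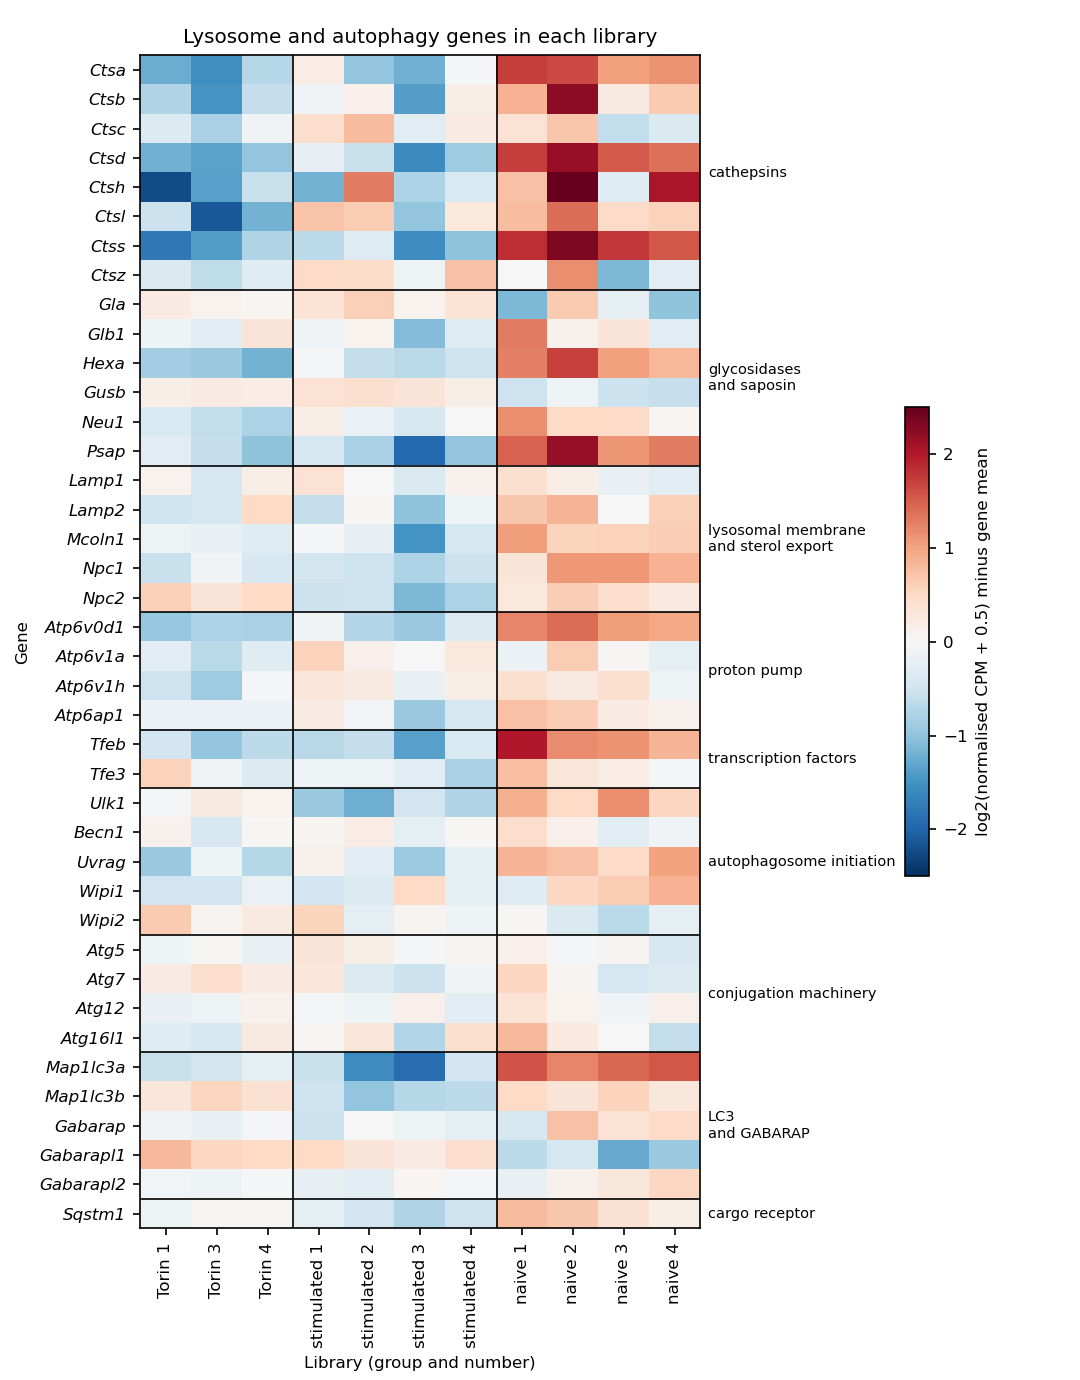
Heat map of 40 members (rows, grouped by role) in 11 libraries (columns). Colour gives log2(normalised CPM + 0.5) minus the mean of that gene over the libraries, red above and blue below, capped at 2.5. The 4 naive columns are red for most cathepsins, Hexa, Psap, Tfeb and Map1lc3a, while Gusb and Gabarapl1 are blue there. The conjugation genes stay pale throughout.

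Among cathepsins, the proteases of the lysosome, 4 of 8 were lower (Ctsa, Ctsb, Ctsd and Ctss). Ctsd, an aspartic protease, had 79.2, 62.1, 30.2 and 49.2 normalised CPM in stimulated 1 to 4, against 304, 416, 267 and 241 CPM in naive 1 to 4. Every stimulated library lay far below every naive library (log2 change -2.48, SE 0.29, adjusted p = 6.12e-05). Ctss, a cysteine protease known for trimming the invariant chain in antigen-presenting cells, stood at 28.3 ± 9.99 CPM in stimulated and 190 ± 46.6 CPM in naive cells (mean ± SD, n = 4 each), the largest fall of any member (log2 change -2.75, SE 0.32, adjusted p = 6.18e-05). Ctsa, a carboxypeptidase that also protects the enzymes encoded by Neu1 and Glb1, averaged 46.5 ± 21.4 CPM in stimulated and 164 ± 40.5 CPM in naive cells (log2 change -1.82, SE 0.34, adjusted p = 0.00138). Without the libraries of number 2 the log2 changes of Ctsd, Ctss and Ctsa were -2.36, -2.79 and -1.58, each still past the threshold.

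The other cathepsins were less uniform. Ctsb, a broad cysteine protease, had 51.8, 60.5, 21.0 and 61.8 CPM in stimulated libraries, against 100.9, 264, 64.8 and 87.7 CPM in naive libraries. The groups did not overlap, yet naive 2 stood well above the rest. Its log2 change was -1.41 (SE 0.46, adjusted p = 0.0327), and without the libraries of number 2 it was -0.91 (adjusted p = 0.106). The call was also lost without Torin 4, stimulated 1, stimulated 3 or naive 2 (adjusted p from 0.0533 to 0.108). Ctsh had 1.41, 10.1, 2.03 and 2.80 CPM in stimulated and 6.64, 27.9, 2.93 and 17.3 CPM in naive libraries, so the number 2 libraries were the highest of both groups and the groups overlapped. It was not called (log2 change -1.74, adjusted p = 0.117), but was with the replicate number as a block (-1.78, adjusted p = 0.00835). Ctsl, which averaged 14.2 ± 6.19 CPM in stimulated and 21.2 ± 6.80 CPM in naive cells, was not called (log2 change -0.58, 95% interval -1.53 to 0.37). Ctsc, the dipeptidyl peptidase that activates granzymes, and Ctsz, a carboxypeptidase, had log2 changes of 0.23 and 0.25 with intervals from -0.47 to 0.92 and from -0.62 to 1.11, and both turned negative (-0.23 and -0.20) under library totals alone. Ctsz was called higher without naive 2 (0.81, adjusted p = 0.0409).

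Sums of myeloid markers lay lower in stimulated than in naive libraries of the same number, as did the 4 cathepsins called lower. Outside number 2, the monocyte and macrophage sum was 43.4 to 71.2 CPM in stimulated and 206 to 500 CPM in naive libraries. Of these 16 markers, 5 were called lower, and of the 13 granulocyte markers 3, against 20.2% of all genes. None of the 16 was at 0 in all libraries of either group. Over all libraries, the 10 dendritic cell markers summed to 244 to 562 CPM in stimulated and 271 to 1530 CPM in naive libraries (3 of 10 called lower), and the B cell markers to 43.1 to 14400 and 222 to 47400 CPM (2 of the 8 tested called lower). Erythroid and platelet markers summed to 149 to 467 CPM in stimulated and 278 to 916 CPM in naive libraries (2 of 7 called lower), and stromal and endothelial markers to 1.56 to 5.82 and 18.0 to 21.8 CPM (2 of the 4 tested called lower). The 5 NK cell markers summed to 67.4 to 215 CPM in stimulated and 70.7 to 1030 CPM in naive libraries (1 called higher and 0 lower). Both maxima are mostly Tyrobp, also on the monocyte and macrophage list, at 176 CPM in stimulated 2 and 1005 CPM in naive 2. In naive 2, the myeloid genes Lyz2, Cd14 and S100a8 stood 14.1, 15.6 and 82.0 times above the mean of the other naive libraries. Of the 40 members, Ctsb (3.12 times), Ctsh (3.12), Ctsz (2.95) and Gla (2.91) exceeded 2 times there, and the median member stood at 1.17 times. Ctsd stood at 1.54 times and Ctss at 1.53 times. In stimulated 2, Ctsh alone of the members exceeded 2 times (4.87). The part of these cell types in the cathepsin differences outside number 2 was not tested.

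**Figure D2:**
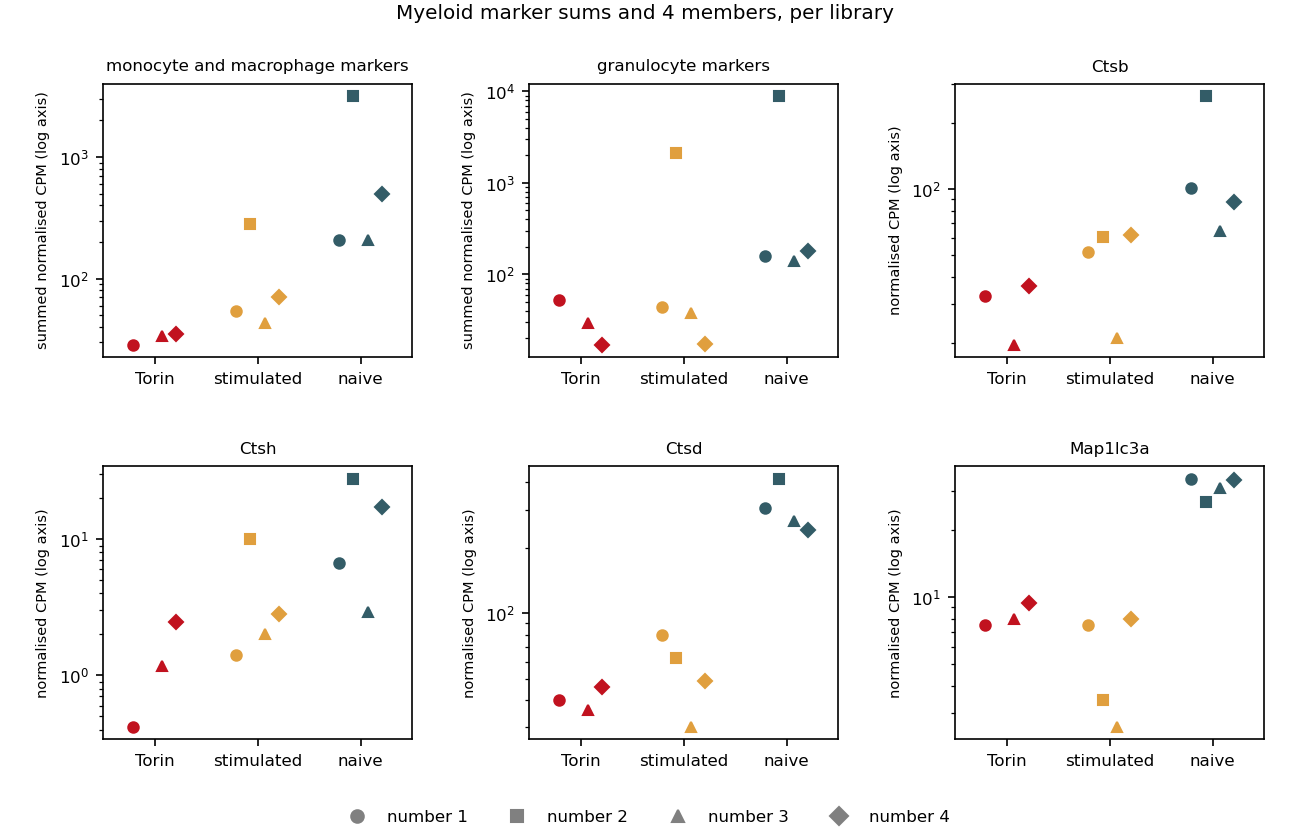
Summed normalised CPM of monocyte and macrophage markers and of granulocyte markers, and normalised CPM of Ctsb, Ctsh, Ctsd and Map1lc3a, in each Torin, stimulated and naive library on log axes. Each point is 1 library and its shape gives the number. Number 2 (squares) is the highest of its group in both marker sums and in Ctsh, while Map1lc3a in naive 2 (26.9 CPM) is the lowest of the naive libraries.

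Among glycosidases and saposin, Hexa, Neu1 and Psap were lower and Gusb was higher. Psap, whose product is cut into the saposins that help glycosidases reach membrane lipids, had 39.8, 30.6, 13.7 and 26.7 CPM in stimulated libraries, against 150, 245, 117 and 133 CPM in naive libraries. All stimulated values lay under all naive values (log2 change -2.54, SE 0.34, adjusted p = 0.000169; -2.32 without number 2). Hexa, a subunit of beta-hexosaminidase, averaged 16.5 ± 3.72 CPM in stimulated and 54.0 ± 14.7 CPM in naive cells (log2 change -1.71, SE 0.22, adjusted p = 0.000116). Gusb, beta-glucuronidase, ran the other way, with 65.3, 66.9, 63.5 and 55.8 CPM in stimulated against 35.2, 46.4, 34.7 and 34.0 CPM in naive libraries. The groups did not overlap (log2 change 0.74, SE 0.13, adjusted p = 0.000924), but under library totals alone the change was 0.27 (adjusted p = 0.172). Neu1, a sialidase, overlapped between groups (29.3 ± 4.99 CPM in stimulated and 47.5 ± 15.9 CPM in naive cells, log2 change -0.70, adjusted p = 0.0319), and its call was lost in 5 of 11 fits that left out 1 library (Torin 4, stimulated 2, 3 or 4, or naive 1, adjusted p up to 0.115) and without number 2 (adjusted p = 0.092). Glb1, beta-galactosidase, and Gla, alpha-galactosidase, did not pass (log2 changes -0.81 and 0.66). Without number 2, Gla was higher in stimulated cells (log2 change 1.12, adjusted p = 0.0158). Transcripts matched to the annotation held only 5.23% of Gla counts, so this change rests mostly on counts outside the annotated Gla transcripts. Naive 2, at 8.25 CPM, was the highest of the naive libraries (2.06, 4.19 and 2.27 CPM in the others).

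Of the 5 membrane and sterol export genes, 4 were lower. Npc2, the soluble protein that takes cholesterol out of lysosomal lipids, had 321, 322, 211 and 266 CPM in stimulated libraries, against 559, 706, 630 and 553 CPM in naive libraries. Its groups were far apart (log2 change -1.13, SE 0.16, adjusted p = 0.000222). Npc1, the membrane partner to which Npc2 hands cholesterol, averaged 5.81 ± 0.57 CPM in stimulated and 16.6 ± 3.85 CPM in naive cells (log2 change -1.51, SE 0.20, adjusted p = 0.000166). Mcoln1, the lysosomal calcium channel, averaged 14.7 ± 5.57 CPM in stimulated and 33.5 ± 5.81 CPM in naive cells (log2 change -1.19, SE 0.28, adjusted p = 0.00522). Lamp1 and Lamp2 encode the main glycoproteins of the lysosomal membrane. Lamp1 stood at 72.5 ± 15.1 CPM in stimulated and 72.9 ± 16.1 CPM in naive cells, with a 95% interval of the log2 change from -0.47 to 0.45. Lamp2 was called lower (10.2 ± 3.32 CPM in stimulated and 19.6 ± 4.66 CPM in naive cells, log2 change -0.95, adjusted p = 0.0314), but stimulated 2, at 13.6 CPM, lay above naive 3, at 13.1 CPM. That call was lost without number 2 (adjusted p = 0.0574), without number 4 (adjusted p = 0.0661) and without stimulated 1 or 3 or naive 1, 2 or 4 (adjusted p up to 0.111).

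In the proton pump, which acidifies the lysosome, Atp6v0d1 and Atp6ap1 were lower and the 2 V1 subunit genes were not called. Atp6v0d1 had 29.9, 18.7, 16.3 and 24.8 CPM in stimulated libraries, against 74.8, 84.6, 65.6 and 62.0 CPM in naive libraries. There was no overlap (log2 change -1.68, SE 0.20, adjusted p = 6.46e-05). Atp6ap1, an accessory subunit, averaged 78.6 ± 25.0 CPM in stimulated and 126 ± 26.1 CPM in naive cells with overlap (log2 change -0.68, adjusted p = 0.0344). Its call was lost in 7 of 11 fits that left out 1 library (any Torin library, stimulated 3 or 4, or naive 1 or 2, adjusted p up to 0.104) and without number 2 (adjusted p = 0.0916) or number 4 (adjusted p = 0.135). Atp6v1a and Atp6v1h had log2 changes of 0.15 and -0.11, with intervals from -0.34 to 0.63 and from -0.58 to 0.36, and Atp6v1a stood at -0.31 under library totals alone.

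Tfeb had 1.68, 1.84, 0.88 and 2.21 CPM in stimulated libraries, against 13.7, 7.50, 7.18 and 5.91 CPM in naive libraries. The lowest naive library stood above the highest stimulated one (log2 change -2.37, SE 0.35, adjusted p = 0.000311; -2.49 without number 2). Tfe3, its close relative, averaged 5.50 ± 1.22 CPM in stimulated and 8.84 ± 2.23 CPM in naive cells, also with no overlap. It did not pass (log2 change -0.69, adjusted p = 0.0665), but did with the replicate number as a block (-0.68, adjusted p = 0.00937).

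Among genes that start the autophagosome, Ulk1 and Uvrag were lower. Ulk1, the kinase that mTOR complex 1 restrains, had 2.51, 1.96, 3.58 and 2.90 CPM in stimulated libraries, against 10.1, 7.55, 12.4 and 7.79 CPM in naive libraries. The groups were clearly apart (log2 change -1.79, SE 0.24, adjusted p = 0.000142). Uvrag, a partner of Becn1 in the lipid kinase complex, averaged 3.58 ± 1.11 CPM in stimulated and 8.04 ± 1.28 CPM in naive cells (log2 change -1.17, SE 0.29, adjusted p = 0.00749). That call was lost without the libraries of number 4 (-1.0, adjusted p = 0.0764). Becn1, the core of the same complex, was not called (45.7 ± 5.46 CPM in stimulated and 47.6 ± 10.5 CPM in naive cells, interval from -0.46 to 0.34). Wipi2, which reads the lipid and recruits Atg16l1, had a log2 change of 0.41 (adjusted p = 0.169), or -0.08 under library totals alone. Wipi1, a relative of Wipi2, was near 0 in every library, at most 0.77 CPM.

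Of the 4 conjugation genes, 0 were called by edgeR, 0 by DESeq2 and 0 at an unadjusted p of 0.05. Atg5, Atg12 and Atg16l1 encode the complex that attaches LC3 to lipid, and Atg7 the enzyme that activates LC3 and Atg12. Their log2 changes were 0.18 for Atg5 (interval from -0.15 to 0.50; -0.31 under library totals alone), -0.16 for Atg7 (from -0.75 to 0.42), -0.19 for Atg12 (from -0.51 to 0.13) and -0.15 for Atg16l1 (from -0.91 to 0.60). In the LC3 and GABARAP family, by contrast, members went in different directions. Map1lc3a had 7.48, 3.44, 2.61 and 7.95 CPM in stimulated libraries, against 34.2, 26.9, 31.2 and 33.8 CPM in naive libraries, with no overlap (log2 change -2.55, SE 0.34, adjusted p = 0.000141). Map1lc3b, the LC3 form most often used to count autophagosomes, had 158, 113, 137 and 143 CPM in stimulated libraries, against 318, 283, 335.2 and 273 CPM in naive libraries (log2 change -1.14, SE 0.13, adjusted p = 6.91e-05). Both LC3 genes were thus lower in each stimulated library than in any naive one. Gabarapl1 was higher, with 67.6, 59.4, 54.7 and 63.8 CPM in stimulated against 29.9, 35.0, 19.6 and 24.9 CPM in naive libraries (log2 change 1.17, SE 0.18, adjusted p = 0.000375; 1.32 without number 2). Its direction and call held in every alternative run, library totals alone included. Gabarap (618 ± 92.9 CPM in stimulated and 913 ± 269 CPM in naive cells) and Gabarapl2 (254 ± 26.4 and 317 ± 65.1 CPM) did not pass, with log2 changes of -0.56 and -0.32. Gabarap passed with the replicate number as a block (-0.53, adjusted p = 0.0284). Sqstm1, the p62 receptor that links ubiquitinated cargo to LC3, averaged 94.5 ± 13.9 CPM in stimulated and 190 ± 36.8 CPM in naive cells with no overlap (log2 change -1.01, SE 0.16, adjusted p = 0.00054).

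**Figure D3:**
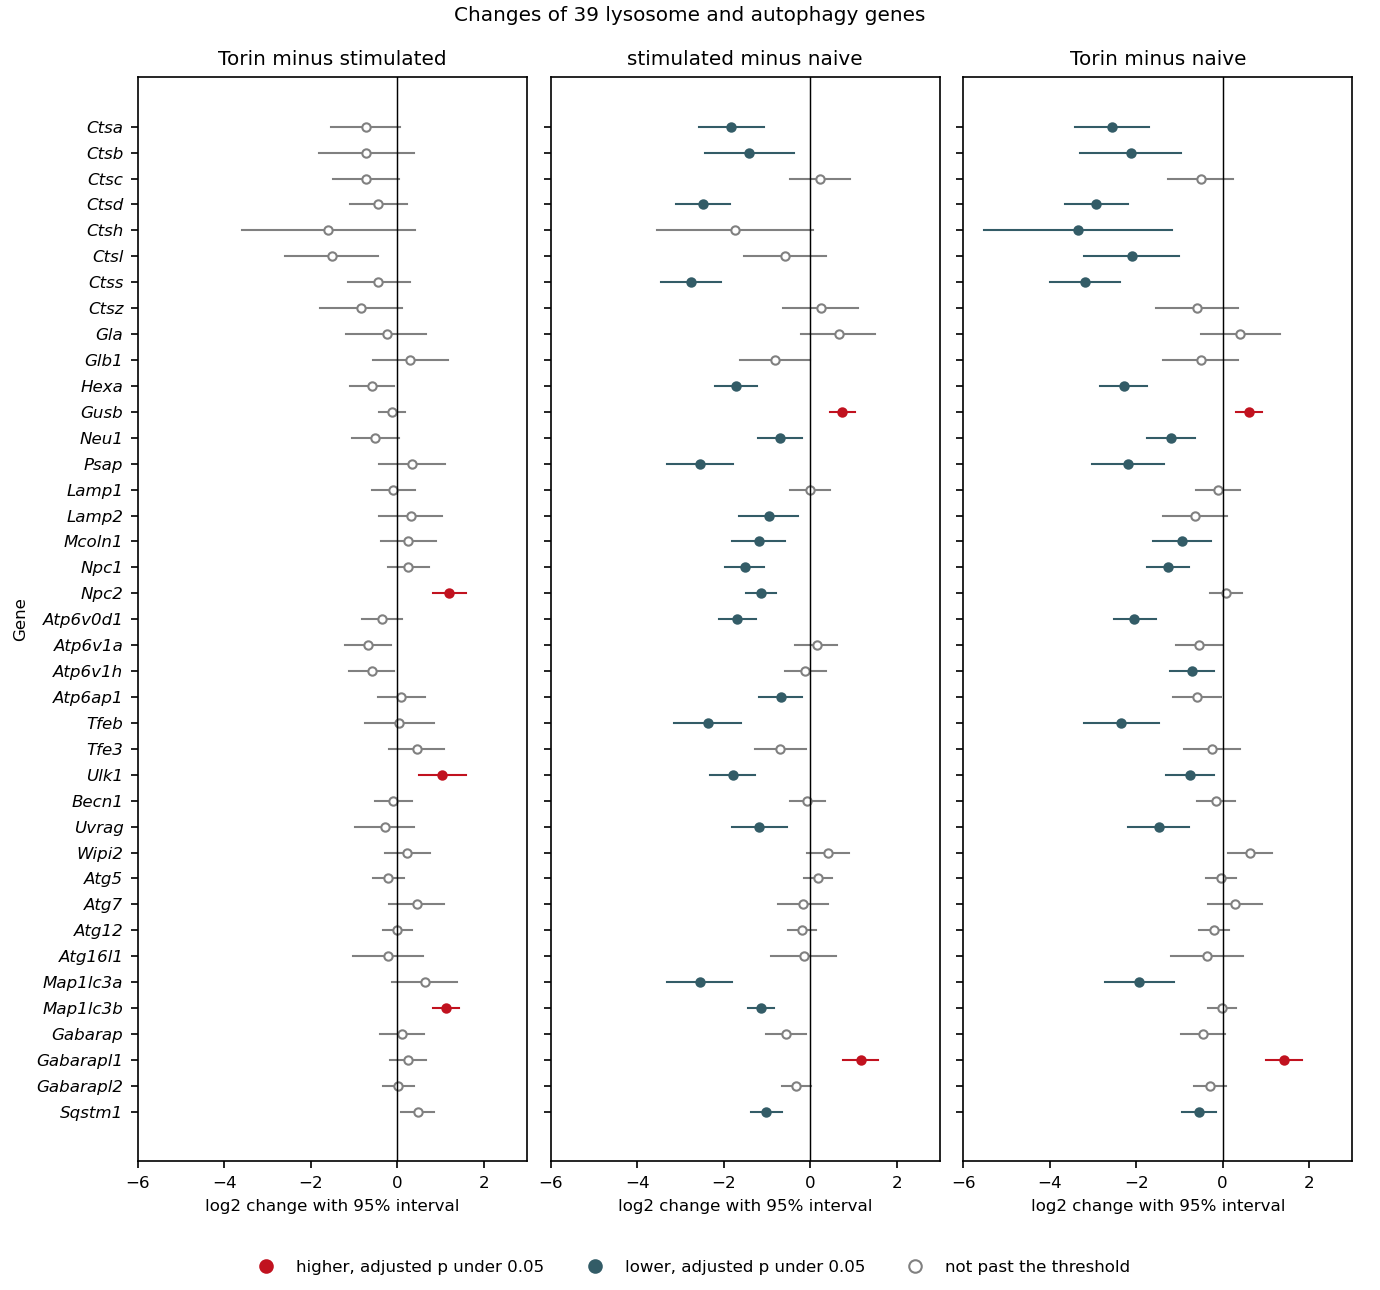
Log2 changes of 39 members (Wipi1, near 0 in every library, is left out) with 95% intervals from the fit over all genes, for Torin minus stimulated, stimulated minus naive and Torin minus naive. Filled points passed an adjusted p of 0.05. In the first panel only Npc2, Ulk1 and Map1lc3b are filled, all to the right. In the second, Gusb and Gabarapl1 lie to the right and 19 filled points to the left. Directions are after composition scaling: under library totals alone the open points of Ctsc, Ctsz, Atp6v1a, Wipi2 and Atg5 in the second panel lie left of 0.

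Of the 21 calls, 15 were made in all alternatives that tested the gene. These were the falls of Ctsa, Ctsd, Ctss, Hexa, Psap, Mcoln1, Npc1, Npc2, Atp6v0d1, Tfeb, Ulk1, Map1lc3a, Map1lc3b and Sqstm1 and the rise of Gabarapl1. Within library numbers, 26 members had a lower level in stimulated than in naive cells in all 4 numbers, and 4 a higher level, against 30.5% and 26.1% of all genes. With the libraries of both groups apart, 17 members were lower and 2 higher, against 21.7% and 19.8% of all genes.

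Pathway genes outside the 40 gave a similar balance of calls. Their lists were also chosen with earlier results of these data known, so they are not an independent check on the members. Of 123 further lysosome and autophagy genes, 62 were lower and 7 higher in stimulated cells, against 20.2% and 19.2% of all genes. Of 32 genes listed as other hydrolases, 20 were lower and 0 higher by edgeR. In that list 1 was higher at an unadjusted p of 0.05, and 1 by DESeq2. It includes Gm2a and Cst3, which are not hydrolases themselves. Of 25 other core autophagy factors, 16 were lower and 1 higher (Atg4b, a protease that processes LC3). The largest fall there was that of Wdr45, a relative of Wipi1, at 6.19 ± 2.37 CPM in stimulated and 37.8 ± 5.17 CPM in naive cells (log2 change -2.61, SE 0.27, adjusted p = 3.34e-05). Of 12 other cargo receptors, 7 were lower, led by Tecpr1, which helps autophagosomes fuse with lysosomes (log2 change -3.83, SE 0.42, adjusted p = 4.78e-05). Of 20 other membrane proteins, 13 were lower and 1 higher, with the cystine exporter Ctns falling by 3.05 on the log2 scale.

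The proton pump and sorting genes outside the members were split. Of 13 other pump subunit genes, 3 were higher and 2 lower. Atp6v0b averaged 1524 ± 26.5 CPM in stimulated and 626 ± 235 CPM in naive cells (log2 change 1.28, SE 0.22, adjusted p = 0.000801; 0.82 under library totals alone, also called), while Atp6v1d fell by 1.9. M6pr, the receptor that carries new enzymes from the Golgi to the lysosome, was higher at 193.5 ± 22.5 CPM in stimulated and 78.4 ± 16.2 CPM in naive cells (log2 change 1.3, SE 0.18, adjusted p = 0.000184), and Igf2r, the other receptor for the same sugar tag, was lower (log2 change -1.33, adjusted p = 0.0118). Of 9 regulators of TFEB and TFE3, the GTPase gene Rraga was higher (log2 change 0.70, adjusted p = 0.00275, but 0.21 and not called under library totals alone) and 2 were lower, with Zkscan3, a repressor of lysosomal genes in human cells, falling by 1.62.

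Torin was then set against its solvent in cells that all received N4. Npc2, Map1lc3b and Ulk1 were higher in Torin than in stimulated cells, and 0 members were called lower by edgeR. At an unadjusted p of 0.05, 4 members were lower (Ctsl, Hexa, Atp6v1a and Atp6v1h), and DESeq2 called 2 of them lower, Ctsl and Atp6v1a, against 7.04% of all genes. The 3 calls among 40 stand against 2.32% of all genes called higher and 2.3% called lower. In a fit of only the 8550 genes with a mean of at least 5 CPM, 8.0% were called higher and 8.12% lower. In that fit, which left out Tfeb and Wipi1, the same 3 were called higher and Ctsl lower (adjusted p = 0.049). The higher calls lie near that share. The median log2 change was -0.10 over the members and -0.02 over all genes. Under library totals alone these medians were 0.03 and 0.11, and 3 members were called higher and 0 lower by edgeR, against 3.23% and 1.55% of all genes. Torin and stimulated libraries are compared here at 3 against 4, and the stimulated libraries also enter the comparison with naive cells, so the 2 comparisons are not independent.

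Npc2 had 700, 578 and 657 CPM in Torin 1, 3 and 4, against 321, 322, 211 and 266 CPM in stimulated libraries. Every Torin library stood above every stimulated one (log2 change 1.20, SE 0.17, adjusted p = 0.00602; 1.28 without number 2, adjusted p = 0.0223). Map1lc3b had 279, 326 and 294 CPM in Torin libraries, against 158, 113, 137 and 143 CPM in stimulated libraries. Again the groups were wide apart (log2 change 1.12, SE 0.14, adjusted p = 0.00576; 1.04 without number 2, adjusted p = 0.0214). Ulk1 had 5.06, 6.19 and 5.6 CPM in Torin libraries, against 2.51, 1.96, 3.58 and 2.90 CPM in stimulated libraries, at levels far lower than those of the other 2. Its groups did not overlap either (log2 change 1.04, SE 0.25, adjusted p = 0.0404). Within numbers 1, 3 and 4 the log2 ratio of Torin to stimulated was 1.13, 1.45 and 1.3 for Npc2, 0.82, 1.25 and 1.04 for Map1lc3b, and 0.89, 0.71 and 0.84 for Ulk1, so all 3 genes were higher in Torin cells in each number. Over the 40 members, 7 were higher and 10 lower in all 3 numbers, against 20.3% and 20.4% of all genes, so these counts lie near the background.

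Where leaving out 1 library lost the call of Ulk1, its log2 change was still 0.91 to 1.11. The call lay near the threshold. It was lost without Torin 1, 3 or 4 or stimulated 1, 2 or 4 (adjusted p from 0.0762 to 0.169), without number 2 (0.91, adjusted p = 0.0951, leaving 2 members called higher and 0 lower by edgeR against 0.712% and 0.861% of all genes), and with no filter on low counts (1.05, adjusted p = 0.0641). The calls of Npc2 and Map1lc3b held in each fit that left out 1 library (adjusted p at most 0.0344 and 0.0342). Without all libraries of number 4, which leaves 2 Torin libraries, 0 members were called by edgeR (Npc2 1.19, adjusted p = 0.0793, Map1lc3b 1.18, adjusted p = 0.0603, Ulk1 1.09, adjusted p = 0.178), where 0.103% of all genes were called higher and 0.143% lower. B cell markers, high in number 4, summed to 13200 CPM in Torin 4 and 14400 CPM in stimulated 4. The part of B cells in these calls was not tested.

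**Figure D4:**
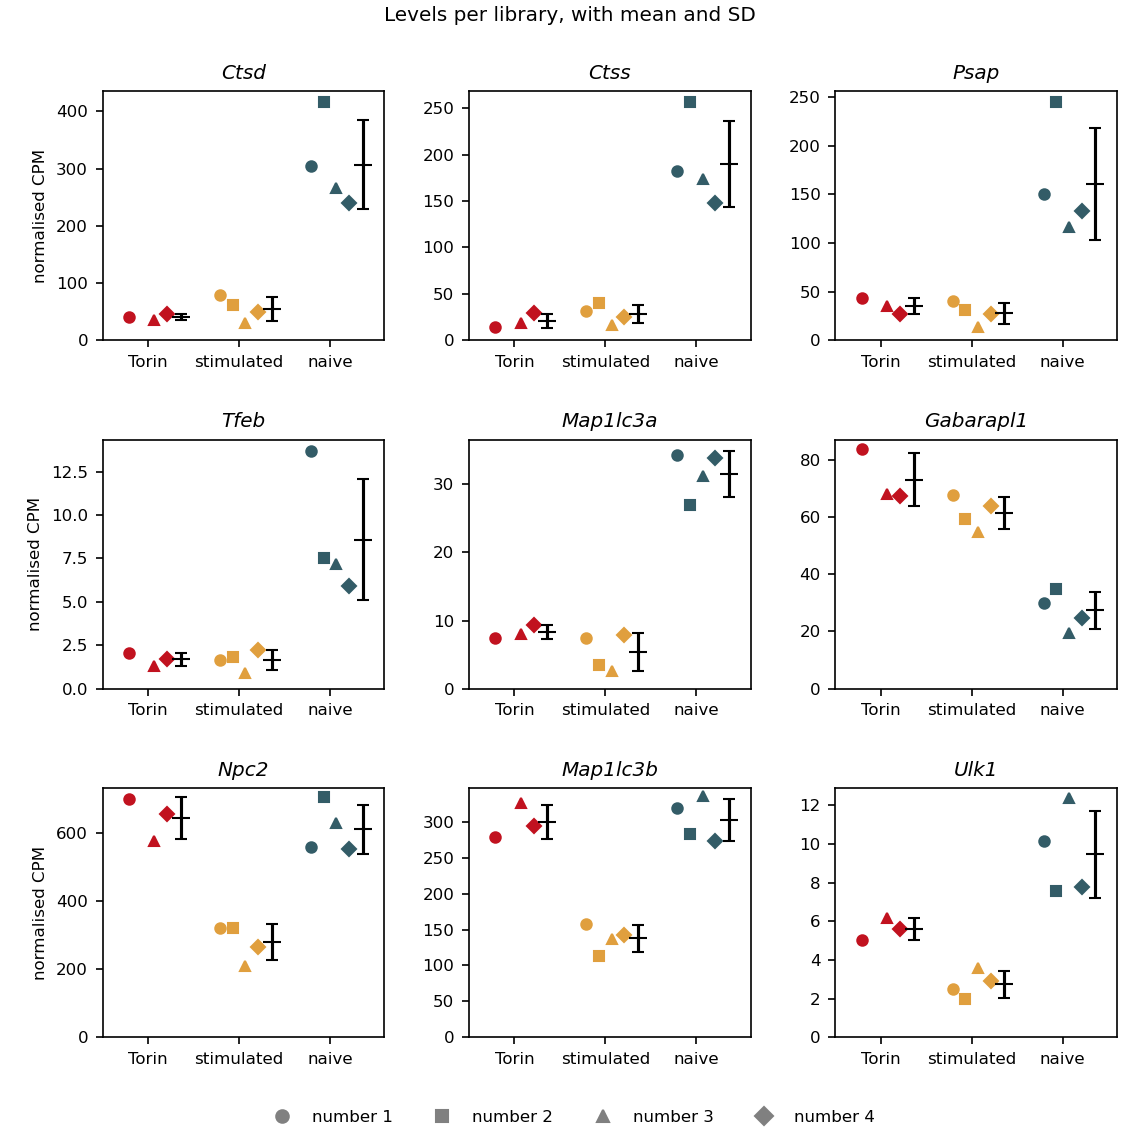
Normalised CPM of 9 members in each Torin, stimulated and naive library, with the mean and SD (black) beside the points and shapes for the library number. Ctsd, Ctss, Psap, Tfeb and Map1lc3a are low in both groups given N4, and Gabarapl1 is high in both. Npc2 and Map1lc3b in Torin cells (645 and 300 CPM on average) lie at the height of naive cells (612 and 303 CPM), and Ulk1 lies between the stimulated and the naive libraries.

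The other members did not pass between Torin and stimulated cells. Sqstm1 had 120, 137 and 136 CPM in Torin libraries, against 112, 94.7, 78.6 and 92.5 CPM in stimulated libraries. These groups did not overlap, and the log2 change was 0.47 (SE 0.17, adjusted p = 0.161). Members whose libraries did not overlap numbered 4 higher (Npc2, Ulk1, Map1lc3b and Sqstm1) and 3 lower (Ctsz, Hexa and Atp6v1a), against 9.56% and 10.1% of all genes. Ctsz averaged 106 ± 12.6 CPM in Torin and 190 ± 43.9 CPM in stimulated cells (a log2 change of -0.84, adjusted p = 0.311), and Atp6v1a 9.61 ± 1.45 and 15.5 ± 2.88 CPM (log2 change -0.69, adjusted p = 0.143). All 8 cathepsins had a log2 change below 0, from -1.60 (Ctsh) to -0.44 (Ctsd and Ctss), and 0 of the 8 were called by edgeR. Stimulated 2, with its myeloid genes, has no Torin partner, and without number 2 the log2 change was -0.62 for Ctsh (adjusted p = 0.748), -0.38 for Ctsd and -0.22 for Ctss. Within numbers 1, 3 and 4, the log2 ratio of Torin to stimulated lay on both sides of 0 for Ctsd (-0.98 to 0.25) and Ctss (-1.11 to 0.26). At an unadjusted p of 0.05 there was 1, Ctsl, which DESeq2 also called. Ctsl had 7.79, 2.25 and 4.76 CPM in Torin libraries, against 19.2, 18.1, 5.59 and 13.8 CPM in stimulated libraries (log2 change -1.52, SE 0.49, adjusted p = 0.107). It passed with the replicate number as a block (-1.38, adjusted p = 0.0399) and without stimulated 3, its lowest stimulated library (-1.84, adjusted p = 0.0373).

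Tfeb, at 1.70 ± 0.38 CPM in Torin and 1.65 ± 0.56 CPM in stimulated cells, had a log2 change of 0.04 with an interval from -0.76 to 0.84. Tfe3 averaged 7.46 ± 2.75 CPM in Torin and 5.50 ± 1.22 CPM in stimulated cells (log2 change 0.44, interval from -0.20 to 1.08). These are mRNA levels, and the phosphorylation by which mTOR controls both factors was not measured. Among the other LC3 and GABARAP genes, Map1lc3a had a log2 change of 0.63 (interval from -0.13 to 1.38), Gabarapl1 0.25 (from -0.17 to 0.67), Gabarap 0.11 (from -0.40 to 0.61) and Gabarapl2 0.02 (from -0.34 to 0.39). Gabarapl2 lay at -0.01 with DESeq2, so it had no stable direction. Of the glycosidases, the membrane genes other than Npc2 and the conjugation genes, none passed with edgeR or DESeq2, and at an unadjusted p of 0.05 only Hexa did.

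Among the 123 further pathway genes, 7 were higher in Torin than in stimulated cells and 3 lower. Over all genes 2.32% were higher and 2.3% lower, and in the fit of genes with a mean of at least 5 CPM 8.0% and 8.12%. The 7 and 3 come from the fit of all genes, so only the first shares match them. Of the 25 other core autophagy factors, 4 were higher and 0 lower by edgeR (1 lower at an unadjusted p of 0.05, and 1 by DESeq2). The 4 were Wdr45, Atg14, Atg13 and Atg2a, of which Atg13 encodes a partner of the ULK1 kinase and Atg14 a subunit of the lipid kinase complex. Wdr45 averaged 25.1 ± 3.35 CPM in Torin and 6.19 ± 2.37 CPM in stimulated cells (log2 change 2.02, SE 0.28, adjusted p = 0.00585; 1.82 without number 2, adjusted p = 0.0157). Fundc1, a mitophagy receptor, and Tax1bp1, a ubiquitin-binding receptor, were higher by 0.77 and 0.70 on the log2 scale. Atp6v0e, a pump subunit (910 ± 103 CPM in Torin and 1746 ± 255 CPM in stimulated cells), Gm2a, the GM2 ganglioside activator (4.60 ± 2.21 and 14.2 ± 3.50 CPM), and Smpd1, acid sphingomyelinase, fell by 0.94, 1.62 and 1.78 on that scale. Without the libraries of number 2, 1 of these 123 genes was called higher (Wdr45) and 1 lower (Gm2a). Over all genes, 0.712% were called higher and 0.861% lower in that fit.

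The third comparison set cells given N4 with Torin beside untreated cells, and it shares its libraries with both others. Of the 40 members, 18 were lower and 2 higher (Gusb and Gabarapl1), against 15.8% and 16.4% of all genes. In a fit of only the 8550 genes with a mean of at least 5 CPM, 30.8% were called lower and 29.1% higher. There Atp6v1a, Atp6ap1, Gabarap and Gabarapl2 were also called lower, and Tfeb and Wipi1 were not tested. The median log2 change was -0.59 over the members and -0.18 over all genes (-0.93 and -0.52 under library totals alone, with 23 lower and 1 higher, against 20.5% and 10.3% of all genes). Without number 2, 15 members were lower and 3 higher, against 14.6% of all genes in each direction, and without number 4, 12 were lower and 2 higher, against 10.4% and 13.1% of all genes. Within numbers 1, 3 and 4 the members' median log2 ratio was -0.90, -0.57 and -0.30, against -0.05 to 0.00 for all genes. Members whose libraries did not overlap numbered 19 lower and 3 higher, against 22.4% and 21.1% of all genes.

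Of 8 cathepsins, 6 were lower in Torin than in naive cells. Ctss averaged 20.9 ± 7.86 CPM in Torin and 190 ± 46.6 CPM in naive cells (log2 change -3.19, SE 0.36, adjusted p = 0.000119), and Ctsd 40.5 ± 5.05 and 307 ± 77.4 CPM (log2 change -2.92, SE 0.33, adjusted p = 0.000109). Ctsa, Ctsb, Ctsh and Ctsl fell by 2.55, 2.13, 3.34 and 2.1 on the log2 scale. Without number 2 the log2 changes were -2.47 for Ctsa, -1.52 for Ctsb (adjusted p = 0.0199), -2.73 for Ctsh (adjusted p = 0.0265) and -1.86 for Ctsl. The call of Ctsh was lost without Torin 1, Torin 3 or naive 2 (adjusted p from 0.0526 to 0.0844), and those of Ctsh and Ctsl were lost without number 4 (adjusted p = 0.0666 and 0.0641). Monocyte and macrophage markers, at 28.7 to 35.0 CPM in Torin libraries, were lower than the 206 to 3150 CPM of naive libraries. Of these 16 markers, 6 were called lower, against 15.8% of all genes. The part of these cells in the cathepsin values was not tested. Hexa, Psap, Neu1, Atp6v0d1, Tfeb, Npc1, Uvrag and Map1lc3a were also lower in Torin than in naive cells, with log2 changes from -2.34 to -1.20. The call of Uvrag was lost without number 4 (adjusted p = 0.0851). Map1lc3a, for example, stood at 8.29 ± 1.0 CPM in Torin and 31.5 ± 3.35 CPM in naive cells (log2 change -1.93, SE 0.37, adjusted p = 0.00222).

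Npc2 and Map1lc3b were not called between Torin and naive cells. Npc2 averaged 645 ± 62.2 CPM in Torin and 612 ± 72.1 CPM in naive cells (log2 change 0.08, interval from -0.30 to 0.45; -0.26 under library totals alone). Map1lc3b averaged 300 ± 24.1 CPM in Torin and 303 ± 29.2 CPM in naive cells (log2 change -0.01, interval from -0.33 to 0.30). A p that misses the threshold does not show that these levels are equal. Ulk1, at 5.61 ± 0.57 CPM in Torin and 9.46 ± 2.26 CPM in naive cells, was lower (log2 change -0.75, SE 0.25, adjusted p = 0.041), as was Sqstm1, at 131 ± 9.04 and 190 ± 36.8 CPM (log2 change -0.54, SE 0.18, adjusted p = 0.0371). Both calls lay near the threshold and were lost in 6 of 11 fits that left out 1 library (each Torin library, naive 1, and stimulated 4 or naive 3 for Ulk1, stimulated 2 or naive 2 for Sqstm1, adjusted p up to 0.145). Without number 2 the call of Sqstm1 was lost (adjusted p = 0.104), and without number 4 both were (adjusted p = 0.166 for Ulk1 and 0.105 for Sqstm1). The calls of Mcoln1 (log2 change -0.94, lost without any Torin library or naive 1, adjusted p up to 0.139) and Atp6v1h (log2 change -0.70, lost without Torin 1 or 3, stimulated 2 or 4, or naive 1, 2 or 3, adjusted p up to 0.153) were no firmer, and both were lost without number 2 (adjusted p = 0.0551 and 0.082), Mcoln1 also without number 4 (adjusted p = 0.203). Gabarapl1 was higher at 83.7, 68.0 and 67.2 CPM in Torin libraries, against 29.9, 35.0, 19.6 and 24.9 CPM in naive libraries (log2 change 1.42, SE 0.19, adjusted p = 0.000279). Gusb was higher as well (57.7 ± 1.32 CPM in Torin and 37.6 ± 5.91 CPM in naive cells, log2 change 0.62, adjusted p = 0.00585), though not under library totals alone (0.28, adjusted p = 0.199).

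Among the further pathway genes, 45 of 123 were lower and 6 higher in Torin than in naive cells, against 15.8% and 16.4% of all genes. The list of other hydrolases again leaned to 1 side. Of its 32 genes, 16 were lower by edgeR, Gm2a and Cst3 among them. It held 0 higher by edgeR, by DESeq2 or at an unadjusted p of 0.05. Gm2a averaged 4.60 ± 2.21 CPM in Torin and 65.9 ± 5.12 CPM in naive cells (log2 change -3.84, SE 0.33, adjusted p = 3.75e-05). M6pr was higher, at 211 ± 39.8 CPM in Torin and 78.4 ± 16.2 CPM in naive cells (log2 change 1.43, SE 0.19, adjusted p = 0.000266), and so was Slc29a3, a lysosomal nucleoside transporter (log2 change 1.52, SE 0.24, adjusted p = 0.000645).

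Levels of different genes can be compared only per length, here in TPM, which divides each transcript count by transcript length and then scales every library to the same sum, without composition factors. Gla is left out, because transcripts matched to the annotation held 5.23% of its counts. In naive cells Gabarap was the highest of the members (805 ± 169 TPM), followed by Gabarapl2 (211 ± 18.4 TPM), Npc2 (208 ± 38.7 TPM), Ctsd (163 ± 50.9 TPM), Ctss (157 ± 46.4 TPM) and Map1lc3b (145 ± 34.7 TPM). Gabarap lay clear of the others, while Gabarapl2 and Npc2 differed by less than the SD of either, as did Ctsd and Ctss, and Ctss and Map1lc3b. Npc2 and Ctsd differed by more than the SD of Npc2 and less than that of Ctsd. Gabarap also led in Torin cells (452 ± 33.6 TPM) and in stimulated cells (367 ± 52.1 TPM). In Torin cells Npc2 came next (162 ± 15.8 TPM), then Gabarapl2 (127 ± 7.13 TPM) and Map1lc3b (108 ± 10.2 TPM). In stimulated cells Gabarapl2 (113 ± 12.0 TPM) and Ctsz (98.2 ± 31.4 TPM) stood above Npc2 (64.2 ± 20.2 TPM) and Map1lc3b (45.9 ± 10.7 TPM). Ctsd and Ctss, near the top in naive cells, were at 15.7 ± 2.27 and 12.7 ± 5.11 TPM in Torin cells and at 19.8 ± 9.96 and 15.7 ± 6.79 TPM in stimulated cells. The kinase Ulk1 was rare in all groups, at 0.92, 0.45 and 2.19 TPM on average in Torin, stimulated and naive cells.

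**Figure D5:**
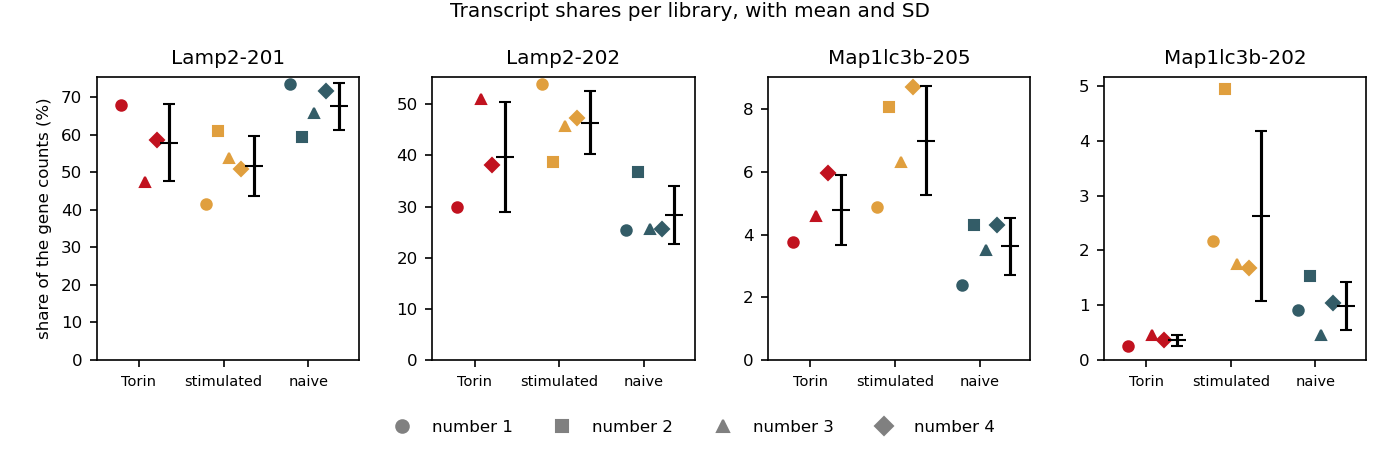
Share of the counts of Lamp2 and Map1lc3b held by 2 transcripts each, in each Torin, stimulated and naive library, with the mean and SD (black). Shapes give the library number. Lamp2-202 is higher in the stimulated libraries (38.7% to 53.9%) than in the naive ones (25.4% to 36.8%), and Map1lc3b-202 is below 0.5% in the Torin libraries.

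Transcript shares could be tested in 23 members with at least 2 transcripts above the filter (55 transcripts). In stimulated against naive cells, 2 of the 23 had a transcript of changed share, Lamp2 and Map1lc3b, against 31.6% of all 4782 genes tested. Lamp2 is spliced to alternative last exons that give the protein different membrane tails, 1 of which serves chaperone-mediated autophagy. Lamp2-202 held 53.9%, 38.7%, 45.8% and 47.3% of Lamp2 counts in stimulated libraries, against 25.4%, 36.8%, 25.7% and 25.7% in naive libraries. The groups did not overlap (log2 ratio difference 0.73, SE 0.18, adjusted p = 0.0213, limma). In Torin libraries its share was 29.9%, 51.1% and 38.1%, spread over the ranges of both other groups. Map1lc3b counts lay mostly in Map1lc3b-201, at 93.2% to 95.8% in Torin, 86.3% to 92.2% in stimulated and 92.6% to 95.6% in naive libraries. The short coding transcript Map1lc3b-205 was higher in stimulated cells (7.0% ± 1.73, against 3.63% ± 0.90 in naive cells, adjusted p = 0.027), as was the retained-intron transcript Map1lc3b-202 (2.63% ± 1.55, against 0.98% ± 0.44, adjusted p = 0.0339). Tfe3-201 held 30.25% to 93.1% of Tfe3 counts in stimulated and 12.0% to 28.9% in naive libraries. It did not pass (log2 ratio difference 1.55, SE 0.50, adjusted p = 0.0702, limma). Shares of some members ranged widely within a group, as Becn1-202 did in stimulated libraries (0% to 90.8%). A share that was not called is therefore not shown to be stable. Without number 4, 0 members had a changed share by limma. Single libraries also decided the count, which was 0 without naive 1 or naive 3, 1 without stimulated 3, stimulated 4 or naive 4, and 4 without Torin 1 or naive 2.

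Between Torin and stimulated cells, 1 of the 23 members had a transcript of changed share, against 2.22% of all genes. Map1lc3b-202 held 0.26%, 0.45% and 0.37% of Map1lc3b counts in Torin libraries, against 2.16%, 4.94%, 1.75% and 1.68% in stimulated libraries. All Torin values lay under all stimulated ones (log2 ratio difference -2.41, SE 0.41, adjusted p = 0.0435). This transcript is a small part of Map1lc3b. Its call was lost without any library other than naive 3, without number 2, without number 4, with the replicate block, with a filter of at least 5 CPM and in a fit of the 2 groups alone.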

How the data were processed

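RNA from 11 libraries of OT-I CD8+ T cells was sequenced after a SMARTer ultra-low input poly(A) preparation, per the labels' protocols. The authors deposited estimated counts per gene and per transcript, in whole numbers, so nothing was rounded. Per the submitters' processing notes, the build was mm39, and the tools named, with no roles given, were StringTie 2.1.0, STAR 2.7.1a, DESeq2 1.30.1, SAMtools 1.9 and R 4.0.5. StringTie derives such counts from coverage, and totals of 241865667 to 405884097 exceed usual read numbers for a reason not given in the sources used here, so precision was taken only from the spread between libraries. Whether the counting used strand is not stated. Unused columns numbered 0.

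Symbols, exon lengths and transcript types came from GENCODE M21 (GRCm38), matched by identifier without version: 52133 genes (94.1%) and 138346 transcripts (97.1%) matched. No coordinate of the tables is given, and promoter coordinates are those of RefSeq on GRCm38.p6. The 40 members and the lists of other pathway and marker genes were chosen with earlier results of these data known, and all members are named. From each other list, the rule took the largest rise and fall per comparison among called genes without overlap whose higher mean reached 5 CPM. A gene that this rule took is not reported here. Atg2a, Atg13, Atg14, Tax1bp1, Smpd1 and, for stimulated against naive, Atg4b were added after their values were seen.

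Genes were tested in edgeR 4.0.16 (R 4.3.3) with quasi-likelihood F tests, TMM composition factors, 1 model of group means over 11 libraries and a minimum count of 10 in filterByExpr. The threshold was a Benjamini-Hochberg adjusted p of 0.05 over 22238 genes. The biological coefficient of variation shared by all genes was 0.79. Normalised CPM are counts divided by library total times composition factor, and SE is the log2 change divided by the root of F. Within-number ratios are log2(normalised CPM + 0.5). Shares were tested with limma 3.58.1 on log2 transcript CPM minus log2 gene CPM, each with 0.5 added.

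In simulated data with 100 genes of at least 5 CPM changed per fold size, edgeR recovered 16% at 2-fold and 94% at 4-fold among 21174 genes for stimulated against naive cells. It recovered 9% and 91% among 21167 genes for Torin against stimulated cells, and 10% and 71% among 21230 genes for Torin against naive cells, with 2 false calls each. The data held more called genes (8773, 1027 and 7163 in turn), which loosens the adjusted threshold. These rates therefore do not describe the tests reported here. For shares, 45.5% of 200 exchanged genes were recovered for stimulated against naive and 56.5% for Torin against stimulated cells, with 6 and 11 false genes. The share simulation gave every transcript the same spread, unlike the data.

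Deviations from group means correlated at 0.16, 0.23, 0.15 and 0.29 between stimulated and naive libraries of numbers 1 to 4. For same-numbered Torin and stimulated libraries the values were 0.11, 0.15 and 0.31, and for Torin and naive libraries 0.08, 0.13 and 0.28. Libraries of different numbers reached at most 0.07. The numbers may thus pair the libraries, on evidence from the data, as the labels do not explain them. The main tests did not use the numbers. No 2 libraries agreed within sampling noise (lowest chi-square per gene 238.7, Torin 1 and 3). Alternatives were DESeq2 1.42.0, library totals alone, genes kept without a filter or from a mean of 5 CPM upward, the replicate number as a block, only the 2 groups compared, leaving out number 2, number 4 or each library, for shares a prior of 2 CPM, and, chosen after seeing the data, the block without number 2.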

Additional observations from a re-analysis of the deposited data

Results flagged for a closer look

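In 80 groups of 4 libraries (40 members in stimulated and in naive cells), 3 values (3.8%) lay far from the other libraries of their group, where chance gives about 1 in 20. Ctsh stood at 10.13 normalised CPM in stimulated 2, against 1.407 to 2.804 CPM in the other stimulated libraries. Gusb stood at 46.39 CPM in naive 2, against 33.96 to 35.18 CPM in the other naive libraries, and it was higher in every stimulated library than in naive 2. Mcoln1 stood at 42.2 CPM in naive 1, against 30.05 to 31.31 CPM in the other naive libraries. Both libraries of number 2 also hold the highest myeloid marker sums of their groups. The part of those cells in the Ctsh and Gusb values was not tested.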

How the results depend on the processing

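Counts of members called lower stayed within 1.5 times of the values reported, 15 to 24 (19 reported) in stimulated against naive and 12 to 23 (18 reported) in Torin against naive cells. Members called higher numbered 1 in both of these comparisons under library totals alone and 4 in both with the replicate block and without number 2, an alternative chosen after seeing the data. In Torin against stimulated cells, 0 members were called higher without number 4 (3 reported), and 2 were called lower by DESeq2, 1 with a mean of 5 CPM or more and 1 with the replicate block (0 reported). With 1 library left out, members called higher were 2 to 4, 2 to 3 and 2 to 3, and members called lower 15 to 19, 0 to 1 and 13 to 19, in stimulated against naive, Torin against stimulated and Torin against naive cells in turn. Further pathway genes called higher numbered 3 under library totals alone in stimulated against naive (7 reported) and in Torin against naive cells (6 reported), and without number 2, 1 was higher (7 reported) and 1 lower (3 reported) in Torin against stimulated cells. Members with changed transcript shares numbered 6 with a prior of 2 CPM, 4 in a fit of the 2 groups alone, 0 without number 4 and 0 to 4 with 1 library left out in stimulated against naive cells. In Torin against stimulated cells they numbered 0 (1 reported) with a mean of 5 CPM or more, the replicate block, the 2 groups alone, without number 2 or number 4, and 0 to 1 with 1 library left out. The causes were not tested.

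Over all genes, library totals alone moved the median log2 change from -0.22 to -0.71 in stimulated against naive, from -0.02 to 0.11 in Torin against stimulated and from -0.18 to -0.52 in Torin against naive cells, and calls in stimulated against naive cells from 4272 higher and 4501 lower to 2600 higher and 6529 lower. In Torin against naive cells, the replicate block lost Sqstm1 (-0.48, adjusted p = 0.0667) and Atp6v1h (-0.72, adjusted p = 0.0577) and gained Wipi2 (0.57, adjusted p = 0.0231). In the other comparisons it changed no call of a member beyond Ctsh, Tfe3, Gabarap and Ctsl, given above.

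Direction turned only for changes that were not called. In stimulated against naive cells, library totals alone gave Ctsc -0.23, Ctsz -0.20, Atp6v1a -0.31, Wipi2 -0.08 and Atg5 -0.31. Lamp1 was at 0.01 with DESeq2, 0.07 in the 2 groups alone, 0.05 without number 2 and 0.04 with the block added, and Becn1 at 0.01 in the 2 groups alone. In Torin against stimulated cells, library totals alone gave Gusb 0.02, Lamp1 0.02, Becn1 0.03 and Atg12 0.15. Atg12 was at 0.01 with no filter and 0.03 in the 2 groups alone, and Gabarapl2 at -0.01 with DESeq2, -0.0025 with a mean of 5 CPM or more, -0.01 with the block, -0.03 without number 2 and -0.02 with both. In Torin against naive cells, Ctsz was at 0.04 with the block without number 2, Npc2 at -0.26 under library totals alone and -0.08 with a mean of 5 CPM or more, Atg5 at 0.0046 in the 2 groups alone and 0.02 without number 4, Atg7 at -0.08 under library totals alone, and Map1lc3b at 0.03 in the 2 groups alone and 0.08 without number 4.

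With 1 library left out, signs turned for Ctsz (-0.02 to 0.81), Lamp1 (-0.14 to 0.20), Atp6v1h (-0.22 to 0.08), Becn1 (-0.16 to 0.10), Atg7 (-0.36 to 0.08) and Atg16l1 (-0.35 to 0.15) in stimulated against naive cells. In Torin against stimulated cells they turned for Lamp1 (-0.26 to 0.07), Lamp2 (-0.08 to 0.49), Mcoln1 (-0.03 to 0.42), Atp6ap1 (-0.12 to 0.28), Tfeb (-0.21 to 0.21), Becn1 (-0.22 to 0.04), Atg12 (-0.07 to 0.06) and Gabarapl2 (-0.03 to 0.04). In Torin against naive cells they turned for Lamp1 (-0.20 to 0.06), Tfe3 (-0.58 to 0.06), Atg5 (-0.15 to 0.12) and Map1lc3b (-0.08 to 0.11).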
